A study of Rattus norvegicus with 9 samples.

Results

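The 9 genes described here encode proteins that neutrophils store in granules or carry at high concentration in the cytosol: Mpo, Elane, Prtn3, Ltf, Camp, Ngp, Lcn2, S100a8 and S100a9. They were taken by symbol and are 9 of the 23026 genes in the deposited tables. Mpo, Elane and Prtn3 were set apart as the 3 early (azurophil) members, and the remaining 6 as the late members. The libraries were made from bone of female Sprague–Dawley rats, bought as young adults, with 3 rats in each of 3 groups. Sham rats lost only fat next to the ovary and received the vehicle sodium carboxymethyl cellulose (CMC-Na). OVX rats had both ovaries removed as a model of postmenopausal osteoporosis and received the vehicle. OVX-AS-IV-High rats were also ovariectomized and received astragaloside IV (AS-IV), a saponin of Astragalus root, at 80 mg/kg. The labels name the tissue only as bone and give no age, and the methods describe a femur kept frozen for molecular work. Gavage began 6 weeks after surgery and lasted 8 weeks. The labels of the 3 Sham libraries differ in the CMC-Na concentration (1, 2 and 3%), whereas the study's methods describe a single vehicle for Sham and OVX rats. Which is right cannot be told from the sources used here, and the 3 libraries were kept as 1 group.

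Neutrophils mature in the bone marrow, so RNA from whole bone carries their granule transcripts. Granule proteins are made in waves: promyelocytes make the azurophil set, then myelocytes and metamyelocytes make the specific and gelatinase sets, and transcription of most granule genes ends before the cell leaves the marrow. Blood neutrophils hold the proteins long after the transcripts have gone, so transcripts of granule genes mark precursors more than mature cells. S100a8 and S100a9 are an exception, since mature neutrophils also hold their transcripts. In bulk RNA, fewer cells of a type and less RNA per cell cannot be told apart.

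All 9 libraries were deep, with 34874880 to 37298250 counts. The members together took between 1.155% (Sham replicate 3) and 1.983% (OVX-AS-IV-High replicate 1) of a library's counts. Other genes expressed in neutrophils were taken beside the members. Csf3r, the receptor for granulocyte colony-stimulating factor, and the protease genes Ctsg, Mmp8 and Mmp9 had mean levels of 145, 681.4, 1107 and 485.4 CPM (TMM-scaled counts relative to library size). The median gene tested had 18.87 CPM. These levels do not fix which cells of the bone held the transcripts. Mmp9 had 14437, 14201 and 15412 counts in Sham replicates 1, 2 and 3, highest in replicate 3, where Csf3r, Ctsg and Mmp8 were lowest of the Sham libraries. Sham replicate 3 stood apart from the other Sham libraries in tissue content, with a summed level of 10 skeletal muscle genes of 1765 CPM against 9696 and 6734 CPM. It was also the lowest of the 9 libraries for Mpo, Camp, Lcn2, S100a8 and S100a9. The part of tissue content in these levels was not tested, and results that turn on this library are also given without it.

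To compare levels between genes, FPKM were used, which scale a count by transcript length and library size. S100a8 was the most abundant member, with a mean of 8666 FPKM over the 9 libraries and rank 6 among all genes. It encodes one chain of calprotectin, the zinc- and calcium-binding protein that fills the neutrophil cytosol. Its partner chain S100a9 followed with 3743 FPKM (rank 15). Camp, the cathelicidin precursor, had 2359 FPKM (rank 22), and Ngp, a cystatin-related protein of the specific granules, had 1496 FPKM (rank 40). Lcn2, which binds bacterial siderophores, had 583.9 FPKM (rank 128). The early members were lower. Mpo, the haem enzyme that makes hypochlorous acid, had 484.1 FPKM (rank 148). The serine proteases Elane (neutrophil elastase) and Prtn3 (proteinase 3) had 309.8 FPKM (rank 212) and 168.3 FPKM (rank 390). The order depends on the scaling by length. In mean CPM, which leave length out, S100a9 (6152) was above S100a8 (4286), and Ngp (1693) and Mpo (1407) were above Camp (1384).

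The order by FPKM was the same in each of the 9 libraries. Over libraries, the ranges of neighbours overlapped for S100a9 and Camp, for Camp and Ngp, for Lcn2 and Mpo, for Mpo and Elane and for Elane and Prtn3. They did not overlap for S100a8 and S100a9, for Ngp and Lcn2 or for Prtn3 and Ltf. The rank of S100a8 lay between 4 and 8 in single libraries, and that of Prtn3 between 244 and 498.

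Ltf departed from every other member. It encodes lactoferrin, the iron-binding protein that defines specific granules in textbooks, yet it was at the edge of detection in rat bone, with a mean of 0.07282 FPKM (rank 17068). Sham libraries had 5, 2 and 6 counts of it, against 9, 12 and 18 in OVX and, with AS-IV added, 0, 6 and 8, where 3 counts or fewer were taken as the limit of detection. The 3 OVX libraries thus held more counts of Ltf than any other library, which at 3 against 3 libraries gives an exact permutation p of 0.1 (two-sided, the smallest possible). The other 5 late members had at least 14263 counts in every library. Ltf was the 1 gene in the tables described as lactotransferrin, and whether its reads were assigned elsewhere was not tested. It did not pass the filter on low counts, so 8 of the 9 members were tested for differences between groups.

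Sequences upstream of the members are shown for the late genes, where members of one granule class sit at opposite ends of the expression range, and around the matches found in the others. They come from RefSeq promoter entries (rat build GRCr8), which were found for 7 members, and not for Elane and S100a8. Capitals mark matches, on either strand, to 3 short motifs known from granulocyte genes: TTGCNNAA (C/EBP core), GAGGAA (PU.1/ETS core) and TGTGGT (RUNX core). The matches in the printed sequences do not overlap each other. Each late sequence is the 250 bases before the annotated start, 5′ to 3′ on the gene's strand: Ngp (chr8:119272355-119272604, plus strand), S100a9 (chr2:178490623-178490872, minus strand), Camp (chr8:118721999-118722248, minus strand) and Ltf (chr8:119878094-119878343, plus strand).
Ngp: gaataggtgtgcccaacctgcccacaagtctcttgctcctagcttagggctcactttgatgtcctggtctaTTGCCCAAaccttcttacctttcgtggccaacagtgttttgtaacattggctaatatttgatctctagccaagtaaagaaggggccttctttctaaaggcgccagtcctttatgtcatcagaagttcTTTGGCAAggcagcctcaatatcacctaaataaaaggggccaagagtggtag
S100a9: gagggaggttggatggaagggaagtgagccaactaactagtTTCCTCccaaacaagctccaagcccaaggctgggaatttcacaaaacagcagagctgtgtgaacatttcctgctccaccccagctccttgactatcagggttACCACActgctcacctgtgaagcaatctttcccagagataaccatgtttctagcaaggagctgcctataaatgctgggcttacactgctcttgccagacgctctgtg
Camp: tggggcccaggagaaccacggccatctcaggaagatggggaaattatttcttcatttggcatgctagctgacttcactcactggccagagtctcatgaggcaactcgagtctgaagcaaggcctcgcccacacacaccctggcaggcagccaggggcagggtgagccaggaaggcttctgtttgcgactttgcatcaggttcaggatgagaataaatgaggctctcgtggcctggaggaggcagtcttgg
Ltf: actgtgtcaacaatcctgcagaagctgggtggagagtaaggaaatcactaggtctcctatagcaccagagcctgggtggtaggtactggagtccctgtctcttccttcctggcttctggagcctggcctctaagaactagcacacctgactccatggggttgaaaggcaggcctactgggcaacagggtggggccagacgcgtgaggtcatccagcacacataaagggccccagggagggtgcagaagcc
For Mpo, Prtn3 and Lcn2 the 250-base window reaches into the gene's own RefSeq interval, so only 30 bases around each match are given: Mpo (chr10:73092255-73092284, plus strand), Prtn3 (chr7:10476272-10476301, minus strand) and Lcn2 (chr3:36081953-36081982, minus strand).
Mpo: gtcacagaggccTTCCTCatagaccaagcc
Prtn3: ccaagctggaagGAGGAAgtgggacctaca
Lcn2: agcccttccttTTGCTCAAccttgcacagt

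Ngp held 2 C/EBP matches and Lcn2 held 1, while the windows of Camp, the third most abundant member by FPKM, and of Ltf, the least abundant, held no match to any of the 3 motifs. S100a9 held 1 PU.1/ETS and 1 RUNX match, and Mpo and Prtn3 held 1 PU.1/ETS match each. Over the 33360 distinct promoter windows of this length in the table, 9.2% held a C/EBP match, 23.3% a PU.1/ETS match and 14.5% a RUNX match. A match is a run of letters and was not tested as a binding site. In the RefSeq gene order, Elane and Prtn3 lie next to each other on chromosome 7 and S100a8 and S100a9 on chromosome 2, with 0 protein-coding genes between them. Camp, Ngp and Ltf all lie on chromosome 8, with 9 protein-coding genes between Camp and Ngp and 21 between Ngp and Ltf.

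To ask whether ovariectomy shifted granule gene expression, OVX was compared with Sham. The early genes Mpo and Elane were higher in every OVX library than in every Sham library, by 1.38-fold and 1.5-fold on the TMM scale, and so was the late gene Lcn2, by 1.18-fold. The early gene Prtn3 overlapped between the groups, as did Camp, Ngp, S100a8 and S100a9, which differed by at most 1.13-fold. When libraries were scaled to 12 genes shared by all white blood cells (pan-leukocyte genes), the log2FC of Mpo went from 0.46 to 0.07, that of Elane from 0.59 to 0.20 and that of Lcn2 from 0.24 to -0.15. The same scaling moved the median log2FC of all genes tested from -0.006 to -0.39, and these 3 genes stayed above that median. A gene was called where it passed both thresholds that the paper states with its results, an absolute log2FC over 1 and an unadjusted p under 0.05. By edgeR's quasi-likelihood test 0 of the 8 members tested were called, where 3.11% of all genes tested were. Of the 8 members, 2 had an unadjusted p under 0.05 with a higher level in OVX, against 8.16% of all genes, and 0 of 8 did after scaling to pan-leukocyte genes. With Benjamini-Hochberg adjustment over all genes, 0 of 8 members passed at 0.05, as did 0% of all genes. DESeq2 gave an adjusted p under 0.05 to 2 of 8 members, Mpo and Elane, and to 5.25% of the genes with an adjusted p.

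Mpo had 1244, 1198 and 973.4 CPM in Sham replicates 1, 2 and 3, 1437, 1576 and 1690 CPM in OVX, and 1467, 1434 and 1644 CPM in OVX-AS-IV-High. All 3 OVX libraries and all 3 OVX-AS-IV-High libraries lay above the highest Sham library. The means were 1138 ± 144.7 CPM in Sham and 1568 ± 126.9 CPM in OVX (SD, n = 3), a log2FC of 0.46 ± 0.125 (SE; edgeR adjusted p = 0.16). Without Sham replicate 3 the log2FC was 0.36 (edgeR adjusted p = 0.115).

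Elane showed the largest difference between OVX and Sham among the 8 members tested. It had 231.5, 226.2 and 236.3 CPM in Sham, 269.4, 378.9 and 395.2 CPM in OVX, and 363.6, 304.7 and 325.3 CPM in OVX-AS-IV-High. The Sham libraries were nearly equal (231.3 ± 5.006 CPM, SD, n = 3) and the OVX libraries spread over a wider range (347.8 ± 68.42 CPM), with OVX replicate 1 closest to Sham. The log2FC was 0.59 ± 0.144 (edgeR adjusted p = 0.149). Elane was past the lower fold threshold of the paper's methods (absolute log2FC over 0.58), applied here after the values were seen. It was the 1 member of 8 past it, beside 6.96% of all genes tested. When 1 library was left out, its log2FC lay between 0.49 (without OVX replicate 3) and 0.74 (without OVX replicate 1).

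Prtn3, the remaining early member, did not separate the groups. It had 240, 242.9 and 213.3 CPM in Sham, 263, 395.5 and 232.1 CPM in OVX, and 362.4, 228.5 and 201.5 CPM in OVX-AS-IV-High. One library in each ovariectomized group, OVX replicate 2 and OVX-AS-IV-High replicate 1, was far above the other 2. The log2FC in OVX vs. Sham was 0.36 ± 0.246 (edgeR adjusted p = 0.473), and without OVX replicate 2 it was 0.10. Prtn3 overlaps the gene Plppr3 in RefSeq, which had 260 to 499 counts per library, against at least 7333 for Prtn3.

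Among the late members, Lcn2 was the 1 tested gene whose groups did not overlap. It had 454.8, 482.5 and 401.9 CPM in Sham, 491.6, 521.8 and 566.3 CPM in OVX, and 597.4, 565.5 and 514 CPM in OVX-AS-IV-High. The OVX libraries began just above the highest Sham library, and the log2FC was 0.24 ± 0.109 (edgeR adjusted p = 0.315). Without Sham replicate 3 it was 0.17 (edgeR adjusted p = 0.359). In all, 3 of the 8 members tested were higher in OVX with no overlap (Mpo, Elane and Lcn2), all on the TMM scale, against 12.7% of all genes tested.

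Camp spread most within Sham, with 1713, 1389 and 840.4 CPM, and had 1233, 1210 and 1590 CPM in OVX. The OVX libraries lay inside the Sham range, and the log2FC was 0.03 ± 0.263 (edgeR adjusted p = 0.961). Ngp had 1738, 1545 and 1383 CPM in Sham and 1309, 1378 and 2158 CPM in OVX. Its log2FC was 0.05 ± 0.199 (edgeR adjusted p = 0.908), with OVX replicate 3 above and the other OVX libraries below the Sham range. S100a8 had 4498, 3903 and 3111 CPM in Sham and 3977, 3601 and 4810 CPM in OVX, a log2FC of 0.11 ± 0.17 (edgeR adjusted p = 0.77). S100a9 had 5976, 5602 and 4464 CPM in Sham and 5784, 5045 and 7254 CPM in OVX, a log2FC of 0.17 ± 0.177 (edgeR adjusted p = 0.629). In both calprotectin genes OVX replicate 3 was the highest of the 6 libraries and Sham replicate 3 the lowest. Without Sham replicate 3, the log2FC of Camp, Ngp and S100a8 turned to -0.20, -0.02 and -0.02.

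**Figure D1:**
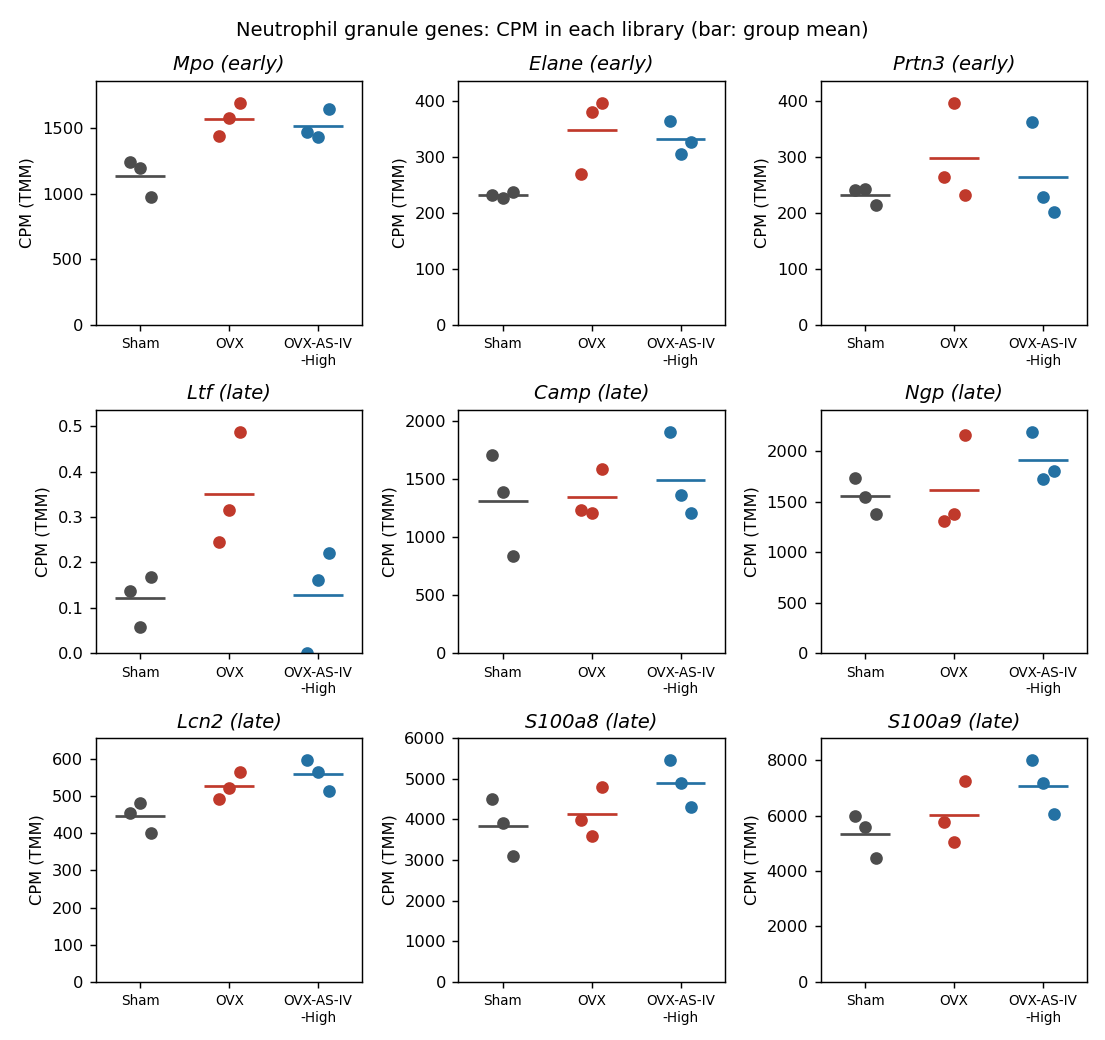
TMM-scaled CPM (y axis, linear from 0, each gene on its own scale) of the 9 members in the 3 libraries of each group (points, replicates 1 to 3 from left to right; horizontal bar, group mean). Mpo, Elane and Lcn2 lie above all Sham libraries in both ovariectomized groups, Camp, Ngp and S100a8 overlap between groups, and Ltf stays under 0.5 CPM. Scaling to pan-leukocyte genes turns Lcn2 to lower in OVX and OVX-AS-IV-High than in Sham. It also moves the median log2FC of all genes tested to -0.39 and -0.38.

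To ask whether AS-IV at 80 mg/kg moved the granule genes away from their OVX levels, OVX-AS-IV-High was compared with OVX. No member separated the groups among the 8 tested (0 of 8 higher without overlap, against 6.38% of all genes tested). The 3 early members had log2FC of -0.05 (Mpo), -0.07 (Elane) and -0.17 (Prtn3), and the 5 late members tested had log2FC of 0.15 (Camp), 0.24 (Ngp), 0.09 (Lcn2), 0.24 (S100a8) and 0.23 (S100a9). Of the 8 members 0 were called (0.83% of all genes), and with absolute log2FC over 0.58 also 0 of 8 (2.19% of all genes). By edgeR 0 of 8 had an unadjusted p under 0.05 (4.42% of all genes had one with a higher level), and 0 of 8 had an adjusted p under 0.05 (0% of all genes). DESeq2 also gave an adjusted p under 0.05 to 0 of 8 members, and to 0.254% of the genes with an adjusted p.

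S100a8 had 5462, 4898 and 4313 CPM in OVX-AS-IV-High, so that 2 libraries were above and 1 was below OVX replicate 3. S100a9 had 8002, 7170 and 6067 CPM, of which 1 was above OVX replicate 3 and 2 were below it. Camp had 1911, 1363 and 1207 CPM and Ngp 2194, 1730 and 1804 CPM. OVX-AS-IV-High replicate 1 was the highest of all 9 libraries for each of these 4 genes and for Lcn2. The largest SE in this comparison were 0.263 for Camp and 0.246 for Prtn3 on the log2 scale. A difference as small as its SE cannot reach an unadjusted p under 0.05. Members with a smaller SE did not reach it either, with an edgeR unadjusted p of 0.185 for S100a8 (SE 0.17) and 0.254 for Ngp (SE 0.199). Without OVX replicate 3, Ngp had a log2FC of 0.51 (edgeR adjusted p = 0.937).

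The ovariectomized, AS-IV-treated rats were also compared with Sham, a comparison that shares libraries with both of the others. Mpo was 1.33-fold higher (log2FC 0.41 ± 0.125, edgeR adjusted p = 0.159) and Elane 1.43-fold higher (0.52 ± 0.144, edgeR adjusted p = 0.139). Among the late members, Lcn2 was 1.25-fold higher on the TMM scale, with a log2FC of -0.05 when scaled to pan-leukocyte genes (TMM log2FC 0.32 ± 0.109, edgeR adjusted p = 0.185) and S100a9 1.32-fold higher (0.40 ± 0.177, edgeR adjusted p = 0.278). These 4 of 8 genes did not overlap between the groups, against 9.61% of all genes tested, and were the 4 with an unadjusted p under 0.05 and a higher level, against 9.17% of all genes. After scaling to pan-leukocyte genes 0 of 8 had an unadjusted p under 0.05, with log2FC of 0.04 for Mpo, 0.15 for Elane and 0.03 for S100a9. The median log2FC of all genes tested was then -0.38. S100a8 was 1.27-fold higher (edgeR adjusted p = 0.322) and its groups overlapped. Without Sham replicate 3, Lcn2 had a log2FC of 0.26 (edgeR adjusted p = 0.207) and S100a9 one of 0.29 (edgeR adjusted p = 0.343). Of the 8 members 0 were called (3.15% of all genes), and by the lower fold threshold 0 of 8 (6.92%). The adjusted p was under 0.05 for 0 of 8 members by edgeR (0% of all genes) and for 2 of 8 by DESeq2 (6.36% of the genes with an adjusted p), again Mpo and Elane.

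**Figure D2:**
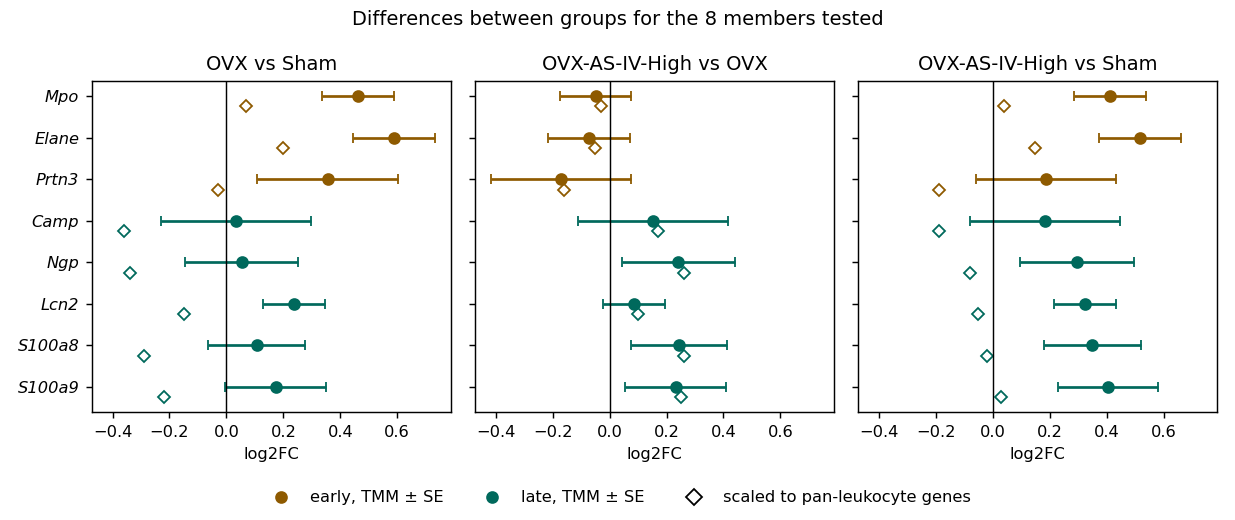
Log2FC (x axis) of the 8 members tested in the 3 comparisons (circles, TMM scaling, bars ± SE from edgeR; brown early, green late) and after scaling to 12 pan-leukocyte genes (open diamonds). In OVX vs. Sham the early genes lie at 0.36 to 0.59 and the late genes at 0.03 to 0.24. Scaling to pan-leukocyte genes moves all 8 to between -0.36 and 0.20, and the median of all genes tested to -0.39.

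Early and late members were then set side by side as classes. In OVX vs. Sham the median log2FC was 0.462 over the 3 early members and 0.106 over the 5 late members tested, where the median of all genes tested was -0.006. Between OVX-AS-IV-High and OVX it was -0.071 for the early and 0.232 for the late members (all genes, -0.016). Between OVX-AS-IV-High and Sham it was 0.412 and 0.324 (all genes, -0.013). The summed early level was 1423 to 1715 CPM in Sham, 1969 to 2350 CPM in OVX and 1967 to 2193 CPM in OVX-AS-IV-High. On this TMM scale it did not overlap between Sham and either ovariectomized group. Mpo made up most of the sum (mean 1138 of 1602 CPM in Sham and 1568 of 2212 CPM in OVX), while Prtn3 overlapped in both comparisons with Sham. Scaled to pan-leukocyte genes, the log2FC in OVX vs. Sham were 0.07 (Mpo), 0.20 (Elane) and -0.03 (Prtn3), with a median of all genes tested of -0.39. The summed late level was 10200 to 14380 CPM in Sham, 11760 to 16380 CPM in OVX and 13910 to 18170 CPM in OVX-AS-IV-High, and all 3 ranges overlapped. The difference between the classes was not tested.

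Within each library, the mean log2 CPM of the early members minus that of the 6 late members did not separate the groups. Sham libraries had differences of -0.09, 0.13 and 0.12, OVX libraries 0.15, 0.54 and -0.10, and OVX-AS-IV-High libraries 0.44, -0.01 and 0.09. Because Ltf lies near the limit of detection and weighs as much as the others in this mean, the difference was also taken without it. Sham libraries then had -2.32, -2.21 and -1.99, OVX libraries -1.94, -1.49 and -2.11, and OVX-AS-IV-High libraries -2.15, -2.22 and -2.04. The groups still overlapped, with means of -2.17 ± 0.169, -1.85 ± 0.321 and -2.14 ± 0.087 (SD, n = 3). The OVX mean exceeded the Sham mean by 0.15 with Ltf and by 0.33 without it. Without OVX replicate 2 these differences were -0.03 and 0.15, and without OVX replicate 3 they were 0.30 and 0.46. Over all 9 libraries, OVX replicate 2 had the highest value in both versions.

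**Figure D3:**
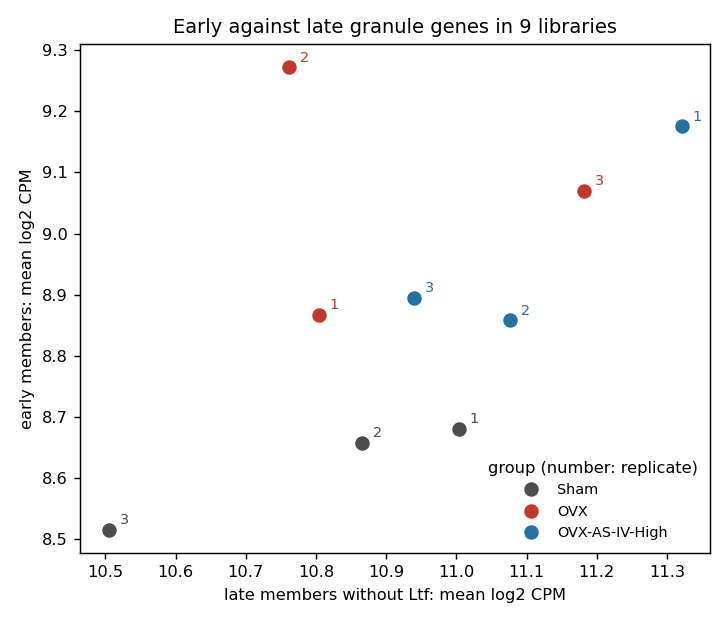
Mean log2 CPM of the 3 early members (y axis) against that of the 5 late members other than Ltf (x axis) in the 9 libraries, coloured by group and numbered by replicate. The 3 Sham libraries have the lowest early levels (8.52 to 8.68), while their late levels span 10.5 to 11.0 and overlap those of the other groups.

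Across the 9 libraries, late members other than Ltf had Pearson's r of at least 0.661 with each other, and early members had r of 0.28 to 0.836. S100a8 and S100a9 followed each other most closely of the 36 pairs (Pearson's r = 0.982 over 9 libraries, exact permutation p = 1.65e-05, adjusted over 36 pairs 0.000594). Spearman's rho was 0.967 (exact permutation p = 0.000165, adjusted 0.00594), r was 0.955 without the 2 libraries farthest from the median of S100a8 and 0.974 for deviations from the group means. The ratio of S100a9 to S100a8 counts stayed between 1.33 and 1.51 in all 9 libraries. Over the 10 pairs of late members other than Ltf, r lay between 0.661 and 0.982 (median 0.833), with an adjusted p under 0.05 for 7 pairs, and between 0.701 and 0.974 within groups. Only S100a8 and S100a9 also had an adjusted p under 0.05 by Spearman's rho. For Camp and S100a8, r was 0.875 (exact permutation p = 0.00266, adjusted 0.027) with rho of 0.733 (exact permutation p = 0.0311, adjusted 0.14), and r was 0.579 without the 2 farthest libraries. Ltf had negative r with each of the other late members (-0.39 to -0.117).

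Mpo and Elane had r = 0.836 (exact permutation p = 0.00264, adjusted 0.027) and rho = 0.883 (exact permutation p = 0.00308, adjusted 0.0554). For this pair r was 0.355 within groups and 0.848 without the 2 farthest libraries. Prtn3 had r of 0.472 with Elane, its neighbour on the chromosome, and of 0.28 with Mpo (exact permutation p = 0.218 and 0.474). The ratio of Prtn3 to Elane counts ran from 0.587 in OVX replicate 3 to 1.07 in Sham replicate 2. Over the 15 pairs of an early member with a late one other than Ltf, the median r was 0.453, and 2 pairs had an adjusted p under 0.05, Mpo with Lcn2 (r = 0.812) and Elane with Lcn2 (r = 0.794). Within groups these were 0.496 and 0.449. The likeness of members across libraries is a description over bulk samples that share their cell content and depth.

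**Figure D4:**
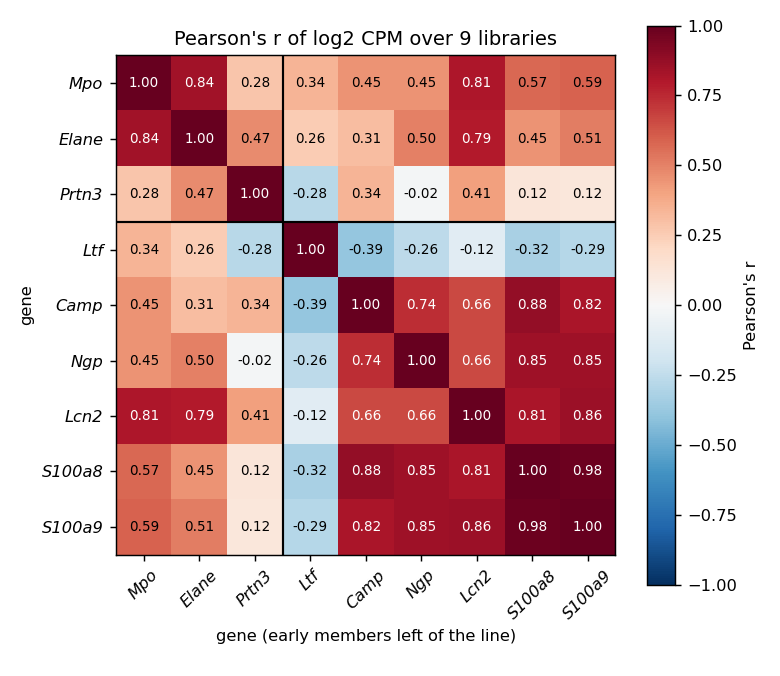
Pearson's r of log2 CPM over the 9 libraries for each pair of members, printed in the cell and coloured from -1 (blue) to 1 (red), with early members left of and above the line. The block of late members from Camp to S100a9 holds values of 0.66 to 0.98, the Ltf row is negative against these 5 genes, and Prtn3 has low values with most members.

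Other genes of the same granules were counted from lists. Of 11 other azurophil or promyelocyte genes tested, 5 had an edgeR unadjusted p under 0.05 and a higher level in OVX than in Sham, against 8.16% of all genes. Of these 11, 0 were called, against 3.11% of all genes, and the median log2FC was 0.404 (0.201 without OVX replicate 3). Ctsg (cathepsin G), another azurophil serine protease, had 20108, 17349 and 15880 counts in Sham and 24852, 28663 and 32405 in OVX, a log2FC of 0.62 (edgeR adjusted p = 0.138). Fcnb, a ficolin, had a log2FC of 0.86 (edgeR adjusted p = 0.14) and Lyz2, lysozyme, one of 0.43 (edgeR adjusted p = 0.165), while the proteoglycan core protein Srgn had -0.16 (edgeR adjusted p = 0.817). Between OVX-AS-IV-High and OVX the median of this list was 0.00, and 1 of 11 had an unadjusted p under 0.05 with a higher level, against 4.42% of all genes. Against Sham, the list median in OVX-AS-IV-High was 0.359. There 7 of 11 had an edgeR unadjusted p under 0.05 with a higher level, against 9.17% of all genes.

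Of 16 other genes of specific or gelatinase granules tested, 1 had an edgeR unadjusted p under 0.05 and a higher level in OVX than in Sham, against 8.16% of all genes. This was Anxa1, annexin A1 (log2FC 0.51, edgeR adjusted p = 0.154), and the median of the list was 0.19. Mmp8 and Mmp9, the collagenase and gelatinase of these granules, had log2FC of -0.17 and 0.31 (edgeR adjusted p = 0.782 and 0.31), and Cybb, a subunit of the oxidase, had 0.23 (edgeR adjusted p = 0.392). Between OVX-AS-IV-High and OVX the median was 0.171. Olfm4, a marker of a subset of specific granules, was the 1 gene of 16 called, against 0.83% of all genes. Sham libraries had 10161, 4631 and 4927 counts of it, OVX libraries 9314, 7101 and 8094, and OVX-AS-IV-High libraries 9618, 26761 and 19484. The OVX-AS-IV-High libraries lay above all OVX libraries, the lowest of them only just, and the log2FC was 1.21 (edgeR adjusted p = 0.652). It fell short of the threshold, at 0.86, when OVX-AS-IV-High replicate 2 was left out. Against Sham, OVX-AS-IV-High had a list median of 0.36, and 7 of 16 had an unadjusted p under 0.05 with a higher level, against 9.17% of all genes. Olfm4 was the 1 gene of 16 called there too, against 3.15% of all genes (log2FC 1.46, edgeR adjusted p = 0.125), with overlapping groups.

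The alpha-defensins, peptides of azurophil granules, were counted for 7 genes, of which 4 were tested and 3 had at most 6 counts in any library. The median log2FC was 0.179 in OVX vs. Sham and 0.137 for OVX-AS-IV-High vs. OVX, with 0 of 4 at an unadjusted p under 0.05 in either. In OVX-AS-IV-High vs. Sham the median was 0.256. There 2 of 4 had an edgeR unadjusted p under 0.05 with a higher level, against 9.17% of all genes. Defensin genes are near-identical copies, so the split of reads among them is uncertain.

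Of 9 transcription factors listed for the granulocyte lineage and tested, 4 had an edgeR unadjusted p under 0.05 and a higher level in OVX than in Sham, against 8.16% of all genes. Among these 4 were Irf8 (log2FC 0.45, edgeR adjusted p = 0.153) and Spi1, which encodes PU.1 (0.25, edgeR adjusted p = 0.229). The list median was 0.25. Myb had a log2FC of 0.25 (edgeR adjusted p = 0.35) and Cebpb one of -0.72 (edgeR adjusted p = 0.34). The less abundant Cebpe and Gfi1 had 0.002 and -0.023 (edgeR adjusted p = 0.997 and 0.959). Between OVX-AS-IV-High and OVX, Irf8 was lower (-0.30, edgeR adjusted p = 0.723) and the list median was 0.046. Of 7 genes of neutrophil growth and release tested, 2 had an unadjusted p under 0.05 and a higher level in OVX, against 8.16% of all genes. Among its abundant genes, Cxcr4 had a log2FC of 0.12, Cxcl12 one of 0.12 and Csf3r one of -0.22. Of 11 genes of mature neutrophils, 2 had an unadjusted p under 0.05 and a higher level in OVX than in Sham, against 8.16% of all genes. The median of this list was 0.107 (-0.052 without Sham replicate 1).

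Genes shared by all white blood cells were higher beside the early members. The 12 pan-leukocyte genes summed to 3256 to 3529 CPM in Sham, 4085 to 4361 CPM in OVX and 4157 to 4466 CPM in OVX-AS-IV-High, with no overlap between Sham and the others. All 12 were higher in OVX than in Sham on average (median log2FC 0.361). Of these, 7 had an edgeR unadjusted p under 0.05, where 8.16% of all genes had one with a higher level. When libraries were scaled to these 12 genes, the log2FC in OVX vs. Sham was 0.07 for Mpo, 0.20 for Elane, -0.03 for Prtn3, -0.36 for Camp, -0.34 for Ngp, -0.15 for Lcn2, -0.29 for S100a8 and -0.22 for S100a9. None of the 8 then had an unadjusted p under 0.05. This scaling also moved the median log2FC of all genes tested to -0.39, and all 8 members stayed above that median. On this scale the 5 late members tested were all below their Sham level on average, with differences inside the spread between libraries. In OVX-AS-IV-High vs. Sham the same scaling left log2FC of -0.19 to 0.15 (median of all genes, -0.38), and 0 of 8 had an unadjusted p under 0.05. The part of white-cell content in the differences of the members was not tested.

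Other cell types gave the following values. The 3 eosinophil granule genes were lower in OVX than in Sham, each with an edgeR unadjusted p under 0.05: Prg3 (log2FC -1.35, edgeR adjusted p = 0.138), Epx (-1.09, edgeR adjusted p = 0.172) and Prg2 (-0.72, edgeR adjusted p = 0.181). Among all 16874 genes tested, 2775 had an unadjusted p under 0.05 in either direction. Prg3 and Epx were called, against 3.11% of all genes. Sham replicate 1 was the highest library for all 3 eosinophil genes. Without it the log2FC of Prg3 and Epx were -0.93 and -0.60, and neither was called. Prg3 was also called in the AS-IV-treated rats against Sham (-1.05, against 3.15% of all genes), and not without Sham replicate 1 (-0.61). The 10 monocyte and macrophage genes had a median log2FC of 0.293 and summed to 608.3 to 937.3 CPM in Sham and 877.5 to 896 CPM in OVX. The medians were 0.683 for 7 B-lineage genes, 0.907 for 6 T and NK cell genes, 0.85 for 6 adipocyte genes, 0.38 for 8 osteoblast genes, 0.384 for 6 osteoclast genes, 0.217 for 8 cell division genes, -0.207 for 7 erythroid genes and -1.166 for 10 muscle genes. Muscle genes summed to 1765 to 9696 CPM in Sham, 1763 to 3612 CPM in OVX and 609.9 to 5117 CPM in OVX-AS-IV-High. Several of these medians moved with 1 library. Without OVX replicate 2 the median of the T and NK cell genes was 0.028, and that library held 934 counts of Cd8a against 233 and 241 in the other OVX libraries and 215, 226 and 174 in Sham. Without Sham replicate 1 the median was 0.10 for monocyte and macrophage, -0.604 for muscle, 0.197 for osteoclast and 0.067 for cell division genes, and without Sham replicate 3 it was 0.023 for erythroid genes. Without OVX replicate 3 the osteoblast median was 0.231. In OVX vs. Sham the called genes of these lists were Cd8a, the fat-cell genes Adipoq, Plin1 and Cidec, and Bglap, osteocalcin. Their edgeR adjusted p were 0.152 to 0.302, and 3.11% of all genes were called. The log2FC was 1.11 for Cd8a (0.15 without OVX replicate 2) and 1.35 for Adipoq. It was 1.12 for Plin1 and 1.36 for Cidec (0.99 and 0.88 without OVX replicate 2). For Bglap it was 1.21 (0.94 without Sham replicate 1). Against Sham, the AS-IV-treated rats had Adipoq (1.77), Plin1 (1.24) and Cidec (1.03, and 0.82 without Sham replicate 1) called. The osteocyte gene Phex (1.03, and 0.69 without OVX-AS-IV-High replicate 2) was called too. The edgeR adjusted p of these genes were 0.107 to 0.283, and 3.15% of all genes were called in this comparison. The part of these cell types in the results was not tested.

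**Figure D5:**
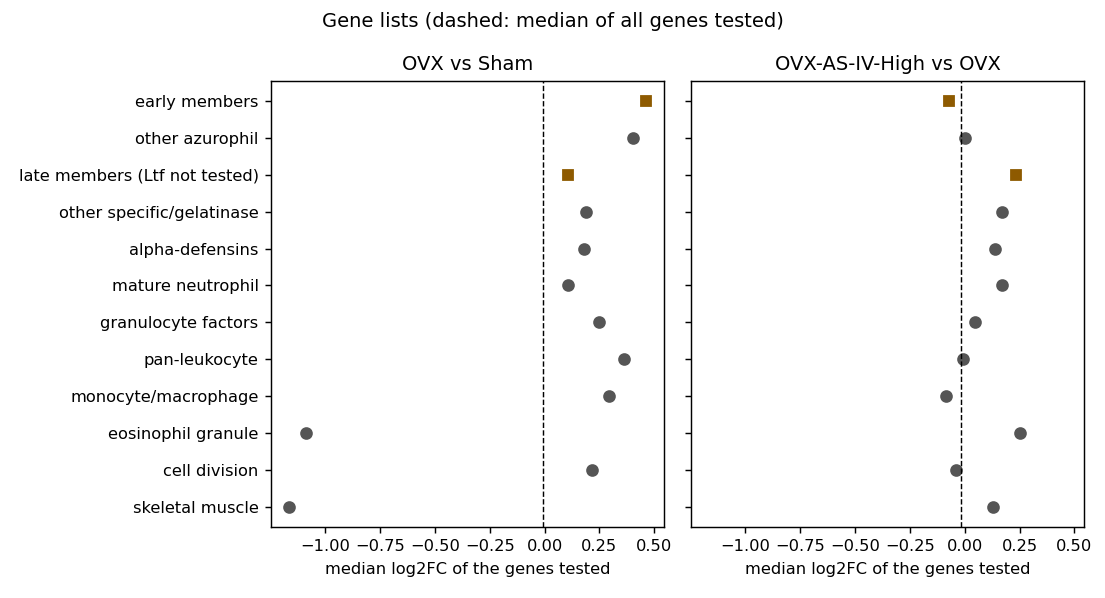
Median log2FC (x axis) of the tested genes of 12 lists in OVX vs. Sham (left) and OVX-AS-IV-High vs. OVX (right; squares, members; circles, other lists; dashed line, median of all genes tested). In OVX vs. Sham the early members (0.462), the other azurophil genes (0.404) and the pan-leukocyte genes (0.361) lie farthest to the right of the late members (0.106). The muscle (-1.166) and eosinophil genes (-1.087) lie far to the left, both at -0.604 without Sham replicate 1. The remaining lists lie between 0.107 (mature neutrophil) and 0.293 (monocyte and macrophage).

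Genes outside the lists whose levels most resembled the class means were taken from 14333 genes with a mean of at least 1 CPM. For the early mean over the 9 libraries these were Ervfrd-1 (r = 0.965), Kif21b (0.956), Fut4 (0.955), Ets1 (0.944) and LOC120095301 (0.944). For the mean of the late members they were Nfam1 (0.883), Acbd4 (0.88), Slc9a2 (0.877), Nae1 (0.872) and Nhlrc1 (0.871). For the late mean without Ltf they were Nrg1 (0.98), Cpne2 (0.94), Prrg4 (0.939), Rida (0.936) and Fgr (0.933). The late lists with and without Ltf share no gene. These are the highest of many values over 9 libraries that share their tissue, and they are given as a description.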

How the data were processed

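Bone RNA of 9 rats (3 groups of 3 independent rats) was sequenced from strand-specific poly(A) libraries. Per the paper's methods, the authors checked reads with FASTQC, cleaned them with NGS QC Toolkit, aligned them (Tophat, Bowtie2) and estimated gene levels with eXpress. The submitters' processing notes name the build mRatBN7.2. Raw counts per gene, in whole numbers, were deposited by the authors; how estimates became whole, and whether counting used strand, is not given in the sources used here. The authors also deposited FPKM values, used here only for levels between genes and for 1 alternative test.

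Counts were tested with edgeR 4.0.16 (quasi-likelihood test, R 4.3.3) in 1 fit of all 9 libraries, with TMM and the default filter (minimum count 10), which kept 16874 genes. A gene was called at |log2FC| over 1 and unadjusted p under 0.05, the thresholds in the paper's results. Benjamini-Hochberg adjustment ran over all genes tested. CPM were scaled by TMM, and log2 CPM used a prior count of 2. The exact permutation test of 3 against 3 libraries cannot give a p under 0.1, and 0.1 is the value wherever groups do not overlap. Alternatives were DESeq2 1.42.0, limma 3.58.1 on log2(FPKM + 1) and log2(FPKM + 0.1), other scalings, no filter, the replicate block and leaving out each library. The script was tested on simulated data. Python 3.11.15, scipy 1.17.1 and matplotlib 3.10.9 were used.

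The members and gene lists were chosen with earlier results of these data known. Named genes are the 9 members, the called genes and up to 4 most abundant genes of each list, and the 5 genes most like each class mean. Cebpe and Gfi1 were named in addition. For lists of cell types other than eosinophils, and for defensins, pan-leukocyte genes and mature neutrophils, only called genes are named. A gene of the growth and release list is not reported here. The lists also included Azu1, Tcn1, Defa7, Defa8 and Defa10, which were not found by these symbols. Replicate numbers were not used in the main fit or the exact tests, which treat all libraries as unpaired, and the replicate block was an alternative only. Deviations of same-numbered libraries from their group means had correlations of 0.31, 0.158 and 0.13 between OVX and OVX-AS-IV-High. The correlations were 0.2, -0.161 and 0.253 between Sham and OVX, and 0.314, -0.158 and 0.435 between Sham and OVX-AS-IV-High. Whether the numbers pair rats cannot be told from these values. The labels give no batch. Counts at this depth are limited by the spread between rats, except for Ltf.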

Additional observations from a re-analysis of the deposited data

How the results depend on the processing

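For the 8 members in 3 comparisons, settings other than leaving out a library kept direction and side of an unadjusted p of 0.05 in 192 values, with 11 reversed, 8 weaker and 5 stronger. Scaling to pan-leukocyte genes reversed Prtn3 (-0.03), Camp (-0.36), Ngp (-0.34), Lcn2 (-0.15), S100a8 (-0.29) and S100a9 (-0.22) in OVX vs. Sham. In the comparison of OVX-AS-IV-High with Sham it reversed Prtn3 (-0.19), Camp (-0.19), Ngp (-0.08), Lcn2 (-0.05) and S100a8 (-0.02). In both, 0 members then had an unadjusted p under 0.05, and 1159 and 1076 genes were called. The same scaling moved the median log2FC of all genes tested to -0.39 and -0.38 in these 2 comparisons. Genes called in the comparisons OVX vs. Sham, OVX-AS-IV-High against OVX and OVX-AS-IV-High against Sham were 525, 140 and 531, against 1174, 369 and 1167 with absolute log2FC over 0.58 (members 1, 0 and 0), 75, 13 and 84 by limma on log2(FPKM + 1), and 315, 80 and 353 on log2(FPKM + 0.1). Without the filter they were 791 and 274 in the first 2 comparisons. DESeq2 gave an adjusted p under 0.05 to 2 members in each comparison with Sham, and edgeR and limma to 0.

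Leaving out 1 library gave 387 to 1064 (highest without Sham replicate 3), 141 to 219 and 409 to 940 genes called. Members called ran from 0 to 1 in OVX vs. Sham, where the 1 is Ltf, which passes the filter without OVX-AS-IV-High replicate 1. Members with an unadjusted p under 0.05 ran from 2 to 3, 0 to 1 and 3 to 5. Log2FC that changed sign ranged from -0.20 to 0.26 (Camp), -0.21 to 0.19 (Ngp) and -0.02 to 0.23 (S100a8) in OVX vs. Sham. They ranged from -0.11 to 0.01 (Mpo), -0.23 to 0.03 (Elane), -0.47 to 0.09 (Prtn3) and -0.07 to 0.29 (Camp) for OVX-AS-IV-High against OVX, and from -0.11 to 0.35 (Prtn3) and -0.05 to 0.43 (Camp) for OVX-AS-IV-High vs. Sham. The early minus late difference ranged from -0.03 to 0.30, -0.17 to 0.15 and -0.01 to 0.21. Without Ltf it ranged from 0.15 to 0.46, -0.42 to -0.11 and -0.04 to 0.13. With a replicate block, S100a9 in OVX-AS-IV-High vs. Sham kept a log2FC of 0.40 but had an edgeR p of 0.0544, against 0.0474 in the main fit. Only its side of 0.05 changed, since S100a9 was not called in either fit. The cause of these shifts was not tested.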

Other observations

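Of 5 ratios between members, 2 were lowest in replicate 3 of each group. The ratio of Camp to Ngp counts was 0.608 in Sham replicate 3, 0.737 in OVX replicate 3 and 0.669 in OVX-AS-IV-High replicate 3, the lowest of its group each time, against 0.788 to 0.986 in the other 6 libraries. Prtn3 to Elane was likewise lowest in replicate 3 of each group (0.903, 0.587 and 0.619). The summed muscle level was also lowest in replicate 3 of each group (1765, 1763 and 609.9 CPM). The ratios of Mpo to Elane, of S100a9 to S100a8 and of Elane to Camp had no such shared order, and the 2 named were picked after the values were seen. The labels give no meaning to the number, and what these libraries share was not tested.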
